A study of Glycine max with 12 samples.

Results

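Cystathionine gamma-synthase joins O-phosphohomoserine to cysteine and makes cystathionine, which is then turned into homocysteine and methionine. The reaction commits carbon to methionine in plants, and the enzyme shares O-phosphohomoserine with threonine synthase. In Arabidopsis, the mRNA of the enzyme is destabilised when S-adenosylmethionine, a product of methionine, is plentiful. Soybean seed protein is rich in most amino acids and poor in the sulfur-containing ones, methionine and cysteine.

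The genes described here are the 2 copies of cystathionine gamma-synthase of soybean, Glyma.09G235400 and Glyma.18G261600, out of 52872 genes in the table of counts. They were taken by identifier, and they were chosen by a rule that used their levels in the nulls and in the events e15 and e19. The levels and changes below are therefore a description, and no p-value is given for the copies. Where a copy is said to be called, the call rests on values used in the choice and is no evidence. The identifiers put the copies on chromosomes 9 and 18. RefSeq's table for the assembly Glycine_max_v4.0 holds 2 genes with a CGS symbol, CGS2 (also GmaCGS2) on chromosome 9 and CGS1 (also GmaCGS1) on chromosome 18. That table carries no Glyma identifier (0 of its genes matched), so the copies are matched to CGS2 and CGS1 by chromosome alone, and they are called by identifier below.

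In RefSeq, both genes lie between a gene with a PHO1 symbol and a gene with an NLP symbol. On chromosome 9, PHO1-H3 was the second protein-coding gene on one side of CGS2 and NLP2 the second on the other. On chromosome 18, NLP1 and PHO1-H6 held these places around CGS1, in the opposite order.

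The samples were developing seeds of soybean (Glycine max) of genotype 93Y21, collected 35 days after flowering. All 12 libraries hold polyadenylated RNA, 6 from seeds called nulls, 3 from event e15 and 3 from event e19. The events carry a construct with the GmUBQ promoter and are marked HOM in the sample titles, and the series title names a deletion variant of GmCGS2 as what was expressed. The titles give the nulls another line code than either event, so a trait of the null line and an effect common to both events cannot be told apart. The construct's product and the native gene cannot be told apart either, because the table holds 1 value per gene. The labels do not say whether replicates came from separate plants, so the spread between them may be technical. Total counts were 21357512 to 23276877 in the nulls, 21988821 to 22849075 in e15 and 19207771 to 21900491 in e19. Nulls 1 to 3 and nulls 4 to 6 stood apart from each other, with 9.59% of the 32115 genes tested called different between them, and results are therefore also given against each set. The tissue could not be checked by marker genes, because the identifiers were matched to no description here.

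Counts of both copies were not whole in all 12 libraries, as happens when reads that match several genes are divided among them. In null 1 the deposited values were 1071.849 for Glyma.09G235400 and 365.151 for Glyma.18G261600, which add up to 1437. In e15 replicate 3 they were 4959.926 and 338.074, which add up to 5298. The sum of the copies was whole in all 12 libraries, within 0.001 at most, so that the reads in question were divided between these copies and no other gene. Such pairs were common in the table. Among the 21559 genes with counts that were not whole in at least 6 libraries, 7452 pairs had a sum that was whole in all 12 libraries (tolerance 0.0015), and 166 of the 750 pairs with a gene on chromosome 9 had the partner on chromosome 18. How many reads were divided cannot be read from the decimals. The sum does not depend on the division, while the level of each copy does.

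Glyma.09G235400 was high in both events, and more so in e15. Its counts, rounded to whole reads, were 1072, 1041, 1138, 1006, 984 and 1011 in nulls 1 to 6. They were 4762, 4711 and 4960 in replicates 1 to 3 of e15. In e19 they were 1986, 2498 and 2481. Every library of e15 lay above every library of e19, and every library of e19 above every null.

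In CPM (reads per 1000000 of the library total, after adjustment of the totals with TMM factors), the levels of Glyma.09G235400 in nulls 1 to 6 were 44.7, 41.8, 46.4, 46.6, 46.2 and 45.03 CPM. They were 219, 223 and 215 CPM in e15 and 97.1, 131 and 127 CPM in e19. The mean was 45.1 ± 1.80 CPM in the nulls (SD, n = 6), 219 ± 3.99 CPM in e15 (SD, n = 3) and 118 ± 18.6 CPM in e19 (SD, n = 3). The nulls were alike, e15 was tight and e19 was spread, with replicate 1 as its lowest library.

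The mean level of Glyma.09G235400 was 4.86 times that of the nulls in e15 and 2.62 times in e19. On the log2 scale the fitted change was 2.28 ± 0.07 in e15 (SE, 95% interval 2.13 to 2.44) and 1.39 ± 0.07 in e19 (SE, 95% interval 1.24 to 1.55). Both comparisons use the same nulls. Set directly against e19, e15 was higher by 0.89 ± 0.09 (SE, 95% interval 0.71 to 1.07), a ratio of mean levels of 1.85. Against nulls 1 to 3 alone the changes were 2.31 (e15) and 1.42 (e19), and against nulls 4 to 6 alone it was 2.26 and 1.37. For comparison, the median log2 change of all genes tested was -0.0044 in e15 and -0.0076 in e19.

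In edgeR's test with Benjamini-Hochberg adjustment over all 32115 genes, 1 of the 2 copies, Glyma.09G235400, was called higher in e15, as were 0.258% of all genes tested. In e19 it was also 1 of the 2, against 0.0467% of all genes. In e15 against e19 it was 1 of the 2, against 0.109% in the higher direction. Levels of Glyma.09G235400 in e15 and nulls did not overlap, which was so in the higher direction for 2.33% of genes, and in e19 and nulls for 1.58%. Levels in e15 lay above e19 without overlap for 5.6% of genes. These comparisons took part in the choice of the genes, so nothing is read from the counts.

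Ranked by mean level among the genes tested, without regard to transcript length, Glyma.09G235400 was at place 2114 in the nulls, within the highest 6.58%. It was at place 235 in e15 and at place 560 in e19. Glyma.18G261600 was at place 7997 in the nulls, 8847 in e15 and 8184 in e19, or within the highest 24.9%, 27.5% and 25.5%. By rank, the chromosome 9 copy moved up among the seed's mRNAs in both events, and the chromosome 18 copy stayed in the same range.

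**Figure D1:**
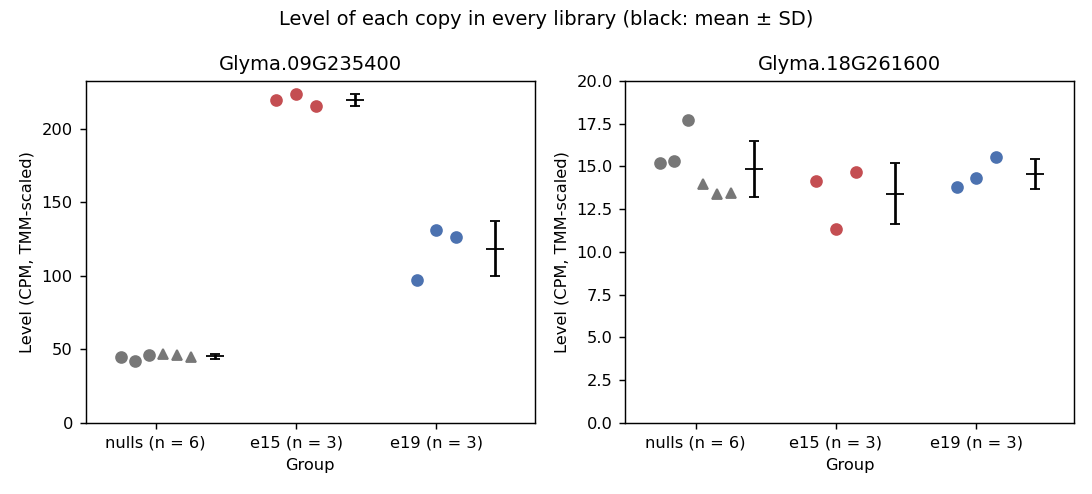
Level of each copy in every library, in CPM scaled with TMM factors (vertical axes from 0, with different ranges), by group. Dots are libraries, triangles are nulls 4 to 6, and black bars give mean ± SD: Glyma.09G235400 averaged 219 CPM (e15), 118 CPM (e19) and 45.1 CPM (nulls), while Glyma.18G261600 lay between 11.4 and 17.7 CPM in all 12 libraries.

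Glyma.18G261600 was at similar levels in the events and the nulls. Its counts were 365, 382, 434, 302, 286 and 301 in nulls 1 to 6. They were 308, 240 and 338 in e15 and 282, 272 and 304 in e19. These counts are not scaled by library totals or TMM factors. In them, all 6 event libraries lay below nulls 1 to 3, and 3 of them also below nulls 4 to 6. That order did not hold after scaling. In CPM, e19 replicate 3 (15.5 CPM) lay above nulls 1 and 2 (15.2 and 15.3 CPM). Of the event libraries, only e15 replicate 2 (11.4 CPM) then lay below nulls 4 to 6. It was the lowest library either way.

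In CPM, Glyma.18G261600 was at 15.2, 15.3, 17.7, 14.0, 13.4 and 13.4 in nulls 1 to 6. It was at 14.2, 11.4 and 14.7 CPM in e15 and at 13.8, 14.3 and 15.5 CPM in e19. The mean was 14.8 ± 1.64 CPM in the nulls (SD, n = 6), 13.4 ± 1.78 CPM in e15 (SD, n = 3) and 14.6 ± 0.885 CPM in e19 (SD, n = 3). The 3 groups overlapped, and e15 replicate 2 was the lowest library.

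The fitted log2 change of Glyma.18G261600 was -0.15 ± 0.10 in e15 (SE, 95% interval -0.35 to 0.05) and -0.03 ± 0.10 in e19 (SE, 95% interval -0.23 to 0.17). Between the events it was -0.11, with a 95% interval of -0.35 to 0.12. These intervals include 0, which does not show that the level was equal. They also lie far below the changes fitted for the copy on chromosome 9.

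The small changes of this copy depended on the nulls they were set against. Against nulls 1 to 3 the log2 change of Glyma.18G261600 was -0.26 in e15 (95% interval -0.45 to -0.07) and -0.15 in e19 (-0.34 to 0.05). Against nulls 4 to 6 it was -0.02 in e15 (-0.21 to 0.18) and 0.10 in e19 (-0.10 to 0.29). The copy was lower in nulls 4 to 6, with a mean of 13.6 ± 0.331 CPM, than in nulls 1 to 3, with 16.1 ± 1.39 CPM (SD, n = 3 each), a log2 difference of -0.24 with a 95% interval of -0.43 to -0.05. The sets did not overlap, which was so in the lower direction for 15% of the genes tested. For Glyma.09G235400 the same difference was 0.05 (-0.12 to 0.23), and the sets overlapped. Scaled by library totals instead of TMM factors, Glyma.09G235400 was lower in nulls 4 to 6 (44.4 CPM) than in nulls 1 to 3 (49.2 CPM), so the direction between the null sets depended on the scaling. Glyma.18G261600 was lower in nulls 4 to 6 with either scaling (13.2 against 17.9 CPM with library totals).

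**Figure D2:**
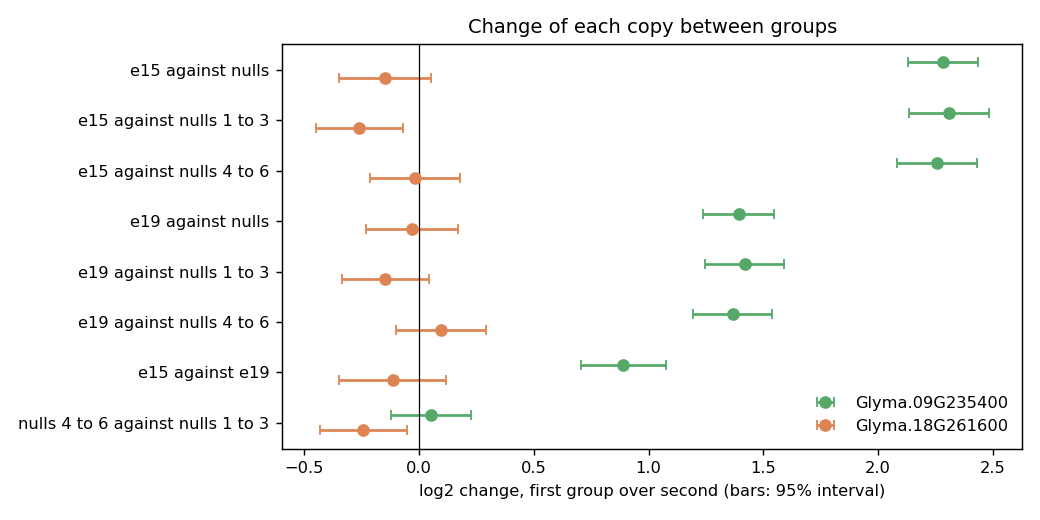
Fitted log2 change of each copy between groups (horizontal axis, first group over second) with 95% intervals as bars. The changes of Glyma.09G235400 in e15 and e19 lay between 1.37 and 2.31 whichever nulls were used, and those of Glyma.18G261600 between -0.26 and 0.10.

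The sum of both copies followed the chromosome 9 copy. The summed counts in nulls 1 to 6 were 1437, 1423, 1572, 1308, 1270 and 1312. They were 5070, 4951 and 5298 in e15 and 2268, 2770 and 2785 in e19. No library of 1 group lay within the range of another. In CPM, single genes separated upward for 2.33% (e15 over nulls), 1.58% (e19 over nulls) and 5.6% (e15 over e19) of those tested. The copies were chosen with these levels known, so nothing is read from the separation.

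The summed level was 59.9 ± 2.36 CPM in the nulls (SD, n = 6), 233 ± 2.41 CPM in e15 (SD, n = 3) and 133 ± 19.2 CPM in e19 (SD, n = 3). That is 3.88 times the nulls in e15 and 2.22 times in e19. Fitted as 1 gene among all others, the sum had a log2 change of 1.96 ± 0.07 in e15 (SE, 95% interval 1.81 to 2.10) and of 1.15 ± 0.07 in e19 (SE, 95% interval 1.00 to 1.30). Between the null sets the sum differed little, with 60.4 ± 3.51 CPM for nulls 1 to 3 against 59.5 ± 1.06 CPM for nulls 4 to 6.

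Over the mean of the nulls, the summed level was higher by 174, 175 and 170.1 CPM in replicates 1 to 3 of e15. In e19 it was higher by 51.0, 85.8 and 82.3 CPM. The mean excess was 173 ± 2.41 CPM in e15 and 73.0 ± 19.2 CPM in e19 (SD, n = 3 each), a ratio of 2.37 between the events. The rise was found on the chromosome 9 copy: in e15 its mean level was higher by 174 CPM while that of the chromosome 18 copy differed by -1.44 CPM, and in e19 the differences were 73.3 CPM and -0.295 CPM.

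**Figure D3:**
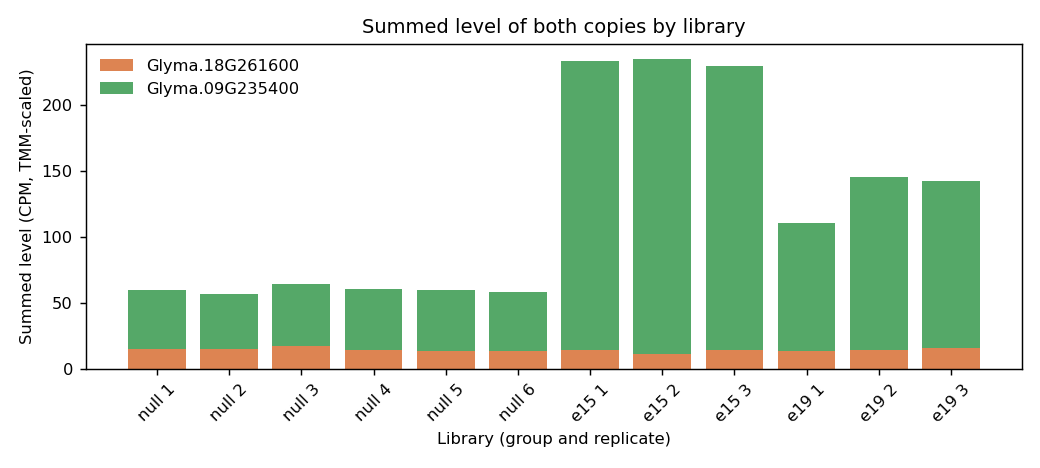
Summed level of both copies in each library, in CPM scaled with TMM factors (bars from 0), split into Glyma.18G261600 (orange) and Glyma.09G235400 (green). The orange part is of similar height in all libraries, and the whole bar reaches a mean of 59.9 CPM for the nulls, 233 CPM for e15 and 133 CPM for e19.

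The balance between the copies shifted with the event. Of the reads counted for the pair, Glyma.09G235400 held 74.6%, 73.1%, 72.4%, 76.9%, 77.5% and 77.04% in nulls 1 to 6. It held 93.9%, 95.2% and 93.6% in e15 and 87.6%, 90.2% and 89.1% in e19. The lowest of these shares, in null 3, had a 95% Wilson interval of 70.1% to 74.6%, and the highest, in e15 replicate 2, one of 94.5% to 95.7%. These intervals cover counting error only, since amplified reads are not independent molecules, and they do not cover the division of shared reads.

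The mean share on the chromosome 9 copy was 75.3 ± 2.20% in the nulls (SD, n = 6), 94.2 ± 0.812% in e15 and 88.9 ± 1.31% in e19 (SD, n = 3 each). Nulls 1 to 3 (73.4 ± 1.12%) lay below nulls 4 to 6 (77.1 ± 0.309%) without overlap, and all nulls lay below both events. For how many other pairs the shares separate in this way was not counted, so nothing is read from it. The shares are of reads, not of molecules per length, because transcript lengths were not used.

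Other pairs that share reads in this way were used as a scale for the gap between the copies. For 7116 pairs both genes were tested, and the size of the difference between the log2 changes of the 2 genes had a median of 0.106 in e15 and of 0.105 in e19. In 99% of the pairs it was at most 0.81 in e15 and 0.83 in e19. For the cystathionine gamma-synthase pair it was 2.43 in e15, the third in order of size, and 1.42 in e19, at place 10. Gaps over 1 were seen in 41 pairs in e15 and in 37 in e19. The pair was chosen with these changes known, so its place is a description.

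**Figure D4:**
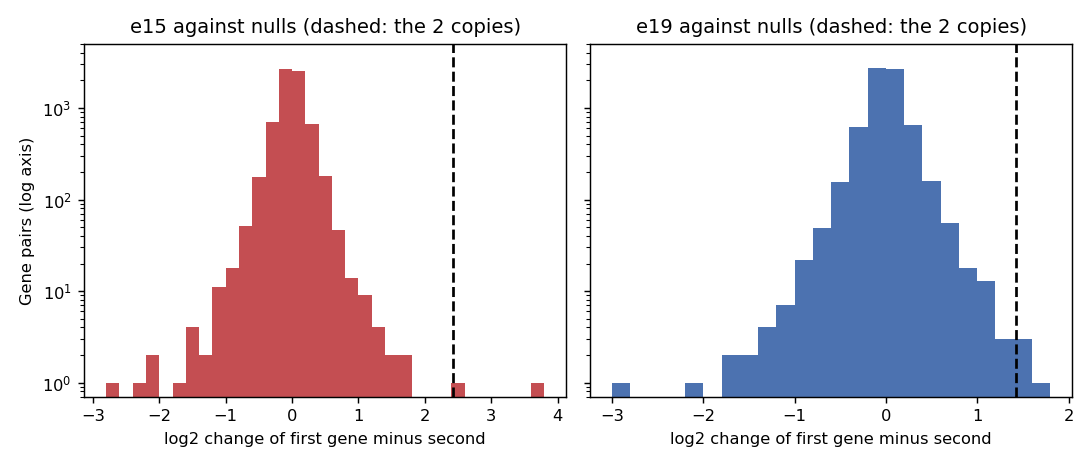
Number of gene pairs (vertical axis, log scale) by the difference between the log2 changes of their 2 genes (horizontal axis, lower identifier minus higher, bins of 0.2) for e15 and e19 against the nulls, over 7116 pairs that share reads. The dashed lines mark Glyma.09G235400 minus Glyma.18G261600, at 2.43 in e15 and 1.42 in e19.

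The spread between replicates differed by group and by copy. For Glyma.09G235400 the SD was 3.995% of the mean in the nulls, 1.82% in e15 and 15.7% in e19, where counting alone would give 3.10%, 1.44% and 2.08%. The counting values take reads as independent molecules, which amplified and divided reads are not, and each SD rests on few libraries. They are therefore only a scale, on which the spread was widest in e19. For Glyma.18G261600 the SD was 11.02% of the mean in the nulls, 13.3% in e15 and 6.08% in e19, with 5.38%, 5.82% and 5.91% from counting. Within nulls 4 to 6 the SD of Glyma.18G261600 was 2.43% of the mean over 3 libraries, below the 5.81% from counting.

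The library that set the spread of e19 was replicate 1, at 97.1 CPM against 131 and 127 CPM for Glyma.09G235400. Without it, the log2 change of that copy in e19 was 1.52, and without replicate 2 or 3 it was 1.31 or 1.34. The difference between the events was 0.77 without e19 replicate 1, and 0.97 and 0.94 without replicates 2 and 3. Replicate 1 did not stand out for Glyma.18G261600, at 13.8 CPM against 14.3 and 15.5 CPM.

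The genes beside the copies were measured next, since they were not used in choosing the copies. The 10 nearest tested genes on each side of each copy, by the order of the identifiers, made 40 genes. None of the 40 was called in edgeR's test in e15 (0 of 40, lowest adjusted p = 0.298), where 0.754% of all genes tested were called. In e19 it was also 0 of 40 (lowest adjusted p = 0.667), against 0.0747% of all genes. At an unadjusted p under 0.05 in edgeR's test there were 6 of the 40 in e15 and 5 of the 40 in e19. Of all genes tested, 9.11% and 7.04% passed. The shares of the neighbours lay above these, on counts too small to be read. DESeq2 called 0 neighbours in both, but its share over all genes was not counted. Against nulls 1 to 3 alone, 4 of the 39 neighbours still tested were called in each event, or 10.3%, where 7.38% of all genes tested were called in e15 and 6.24% in e19. These shares are near one another, so the 4 calls are no result about the neighbours.

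Around Glyma.09G235400 the log2 changes of the 20 neighbours ran from -0.70 to 0.21 in e15, with a median of 0.01, and from -0.57 to 0.55 in e19, with a median of -0.05. Around Glyma.18G261600 they ran from -0.33 to 0.64 in e15, with a median of 0.05, and from -1.66 to 0.61 in e19, with a median of -0.03. The nearest tested gene before the chromosome 9 copy, Glyma.09G235200, had 10.5 ± 0.787 CPM (nulls), 10.9 ± 0.555 CPM (e15) and 10.1 ± 0.970 CPM (e19). The nearest after it, Glyma.09G235600, was at 1.44 ± 0.280, 1.38 ± 0.405 and 1.37 ± 0.319 CPM (SD, n = 6, 3 and 3 for both genes). Every one of the 20 neighbours on chromosome 9 thus had a smaller fitted change than the copy between them, and for several the level was low and the error of the change wide.

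Of the 20 neighbours on chromosome 9, 6 formed pairs of shared reads with neighbours of the chromosome 18 copy, and the 6 partners ran in the reverse order along chromosome 18. They included Glyma.09G235200 with Glyma.18G261900 and Glyma.09G235900 with Glyma.18G261100, which lie on opposite sides of the copies. Glyma.09G235900 had 30.0 ± 1.84 CPM (nulls), 30.4 ± 1.93 CPM (e15) and 30.5 ± 0.935 CPM (e19). Its partner Glyma.18G261100 was at 52.6 ± 1.03, 56.1 ± 3.30 and 51.8 ± 1.46 CPM. Over all 12 genes of the 6 pairs, the log2 changes ran from -0.70 to 0.64 in e15, with a median of 0.06, and from -0.83 to 0.32 in e19, with a median of 0.01, and 0 of the 12 were called by edgeR in either event.

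**Figure D5:**
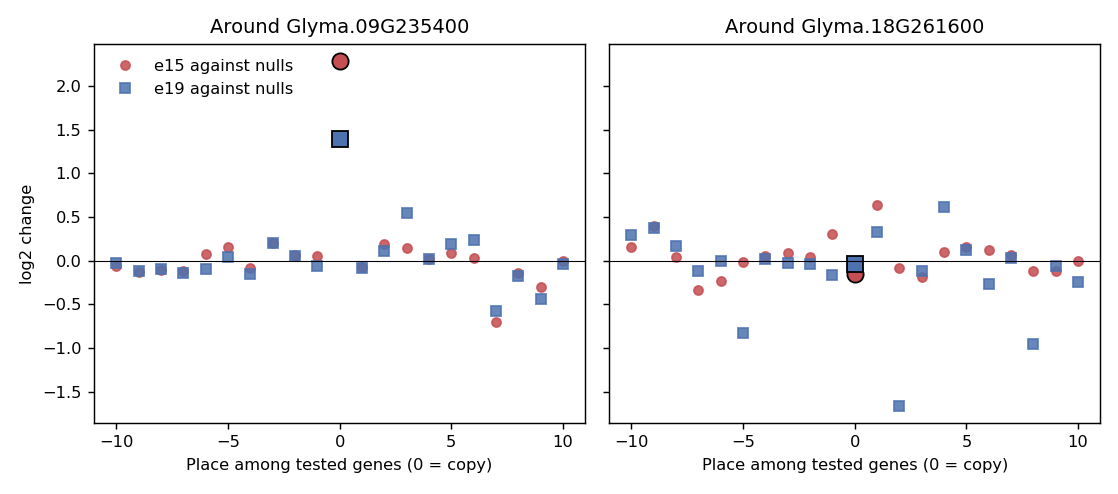
Fitted log2 change (vertical axis) in e15 (red dots) and e19 (blue squares) against the nulls for the 10 tested genes on each side of each copy, by place along the chromosome (horizontal axis). The outlined symbols at place 0 are the copies: Glyma.09G235400 was at 2.28 and 1.39, above all its neighbours, and Glyma.18G261600 was at -0.15 and -0.03, within the range of its neighbours.

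Genes with the most similar pattern were sought over the 12 libraries among the 17355 other genes that averaged 5 CPM or more, by Pearson's correlation of log2 CPM. The values are descriptions, since libraries of 1 group share their level. Closest to Glyma.09G235400 was Glyma.09G250200 on the same chromosome (r = 0.961), with 41.9 ± 1.83 CPM (nulls, n = 6), 56.6 ± 2.09 CPM (e15) and 51.1 ± 3.22 CPM (e19, SD, n = 3 each). Its order of groups was that of the copy, but its log2 changes were smaller, at 0.43 in e15 and 0.29 in e19. Next was Glyma.14G117700 (r = 0.937), which had 947 ± 131 CPM (nulls), 3221 ± 165 CPM (e15) and 2682 ± 652 CPM (e19) and log2 changes of 1.77 and 1.502. All 5 genes most like the copy had r of at least 0.906.

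Glyma.18G261600 had other genes beside it in pattern. The closest were Glyma.04G240100 (r = 0.937) and Glyma.13G120600 (r = 0.922). Glyma.04G240100 averaged 7.16 CPM (nulls 1 to 3), 4.80 CPM (nulls 4 to 6), 4.32 ± 0.863 CPM (e15) and 5.88 ± 0.534 CPM (e19). Glyma.13G120600 averaged 17.2 CPM (nulls 1 to 3), 9.70 CPM (nulls 4 to 6), 11.1 ± 4.31 CPM (e15) and 12.2 ± 2.81 CPM (e19). Both were highest in nulls 1 to 3, as was the copy. The correlation between the copies themselves over the 12 libraries was -0.367. In these bulk seeds, a change in the make-up of cells and a change in RNA per cell cannot be told apart for any of these genes.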

How the data were processed

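The authors deposited 1 table of estimated counts per gene, with a column for each of 12 libraries (0 columns were left out). Per the labels' protocols, libraries came from a stranded mRNA kit and were read as single reads of 100 bp. The aligner, the counting program and its use of strand were not given in the sources used here. Counts were rounded, filtered with edgeR's filterByExpr (32115 of 52872 genes kept), scaled with TMM factors and tested by quasi-likelihood (edgeR 4.0.16 in R 4.3.3, robust option), all libraries together with a mean per group, at a false discovery rate of 0.05. Null sets were compared in a fit with the nulls as 2 means. Levels are unrounded counts in CPM. Each standard error is the log2 change divided by the root of its F. DESeq2 1.42.0 was an alternative. The test was tried on simulated data.

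The copies, lists and tests were chosen with earlier results of these data known. Named were the copies, called neighbours (at most 2 per direction) and the genes most alike in pattern, of which the first 2 of 5 are given. The flanking genes were named after their values were seen. A list of methionine pathway genes and one of seed marker genes rest on descriptions, which 0 identifiers matched, and were not analysed here. Sequences of the copies were not used here.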

Additional observations from a re-analysis of the deposited data

Results flagged for a closer look

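The level of Glyma.09G235400 differed between the events, which carry the same construct per the labels. On the log2 scale e15 exceeded e19 by 0.89, with a 95% interval of 0.71 to 1.07, and the 3 libraries of e15 (215 to 223 CPM) all lay above the 3 of e19 (97.1 to 131 CPM). The difference is a description, because the gene was chosen with it known. No library among the nulls stood apart for either copy, for their sum, for their shares or for total counts, the 5 measures examined in that way.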

How the results depend on the processing

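Over 20 alternatives, 187 of 190 changes, ratios and shares moved by less than the SD of single libraries and 3 by more. That SD was pooled over both groups for a log2 change, and was of the event alone for a ratio to the nulls. For a share it was of the group. The SD of the nulls did not enter a ratio. Without null replicate 3, the ratio of summed levels in e15 rose to 3.94, which was 1 of the 3 larger moves. Leaving out 1 library cannot move its group's mean by more than that group's own SD, and shares do not depend on the scaling. The count of 187 is therefore no evidence of stability. Of 40 counts of called neighbours, 36 stayed at 0, and 0 changes whose interval excluded 0 turned in sign. Neither is evidence of stability. Few genes of any kind were called with all nulls (0.754% in e15 and 0.0747% in e19). The changes whose interval excluded 0 were those of Glyma.09G235400, which was chosen with them known. With library totals alone, the log2 change of Glyma.09G235400 in e15 was 2.19 and the ratio of the summed level in e15 to the nulls was 3.64. In e19 the same values were 1.27 and 2.04. The log2 change of Glyma.18G261600 was then -0.24 in e15 and -0.16 in e19. Leaving out 1 library at a time, the ratio of the summed level in e15 to the nulls ran from 3.85 to 3.94. The log2 change of Glyma.09G235400 ran from 2.26 to 2.30 in e15 and from 1.31 to 1.52 in e19, and that of Glyma.18G261600 from -0.21 to -0.04 and from -0.08 to 0.03. Against nulls 1 to 3 alone, 4 of 39 neighbours were called in e15 and 4 in e19 (10.3%), where 2348 (7.38%) and 1986 (6.24%) of all genes tested were called, against 242 and 24 with all nulls.

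With the replicate number as a block, which leaves nulls 4 to 6 without a partner, the log2 change of Glyma.09G235400 was 2.31 in e15 and 1.41 in e19, and 3 and 4 of the 40 neighbours were called (7.5% and 10%), where 7.32% and 6.06% of all genes tested were called. The labels do not say that numbers pair libraries, and deviations of libraries with the same number had correlations of -0.0458 to 0.0672, so the numbers were not taken as pairs. Alternatives for the methionine pathway list were not run. The 95% interval of the log2 change of Glyma.18G261600 ran from -0.35 to 0.05 in e15 and from -0.23 to 0.17 in e19, so changes within these bounds could not be told from 0.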
